A study of Homo sapiens with 15 samples.

Results

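The 32 genes described here are transcriptional targets of p53, and their transcripts were followed through all 15 libraries of a bulk RNA sequencing experiment. Members were the rows of the gene count table whose symbol stood in a list of known p53 targets. All 32 symbols matched exactly 1 of the 58780 genes with an identifier. All 32 also passed the filter on low counts, which 24659 genes passed in all. By their known roles, 10 act in cell cycle arrest and in feedback on p53, 12 in apoptosis and cell death, 5 in DNA repair and nucleotide supply, and 5 in metabolism.

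p53 is a transcription factor that is kept scarce by MDM2, the ubiquitin ligase that marks it for destruction. Damage to DNA, stalled ribosome production and other stresses stabilise the protein, which then binds DNA as a tetramer and raises a set of target genes. Some of these targets stop the cell cycle or kill the cell, others repair DNA or adjust metabolism, and MDM2 itself is a target, which closes a negative feedback loop. In heart muscle the pathway is known for its part in cardiomyocyte death and in the withdrawal of cardiomyocytes from the cell cycle.

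The cells were atrial cardiomyocytes with a wild-type genotype, differentiated as spheroids from H7, an established human embryonic stem cell line, with retinoids to steer them to the atrial fate. Spheroids were dissociated on day 17. When the cells were treated and harvested after that is not stated in the labels. Of the groups given siRNA, the control had scramble siRNA, and the others had siRNA-1 or siRNA-2, which both target ATRNL1, the gene of a membrane protein related to attractin. Of the groups given lentivirus, the control had the control lentivirus, and the other had a virus with the short ATRNL1 isoform (the ATRNL1 lentivirus). Virus was packaged in HEK293T cells, and transduced cells were selected with puromycin, per the labels' protocols. Each group had 3 libraries, and all come from 1 cell line. Libraries are numbered within a group in the order of the table's columns, which name the group but not the labelled sample. In 4 groups the title of 1 sample joins the numbers of the other 2, and whether libraries share RNA was not tested. In every group the library outside the 2 that differed most was taken as the one between. It lay between those 2 in 40.4% of the 7258 genes above 20 CPM in siRNA-2 and in up to 74.4% in scramble. The labels name no separate cultures, so each p-value reflects the spread among these samples alone, which may be technical.

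Levels are in CPM, a gene's share of a library's counts scaled to a common total, on library sizes scaled by TMM, a method that assumes most genes do not change. A gene was called where edgeR's quasi-likelihood test, fitted over all genes and all 15 libraries, gave a Benjamini-Hochberg adjusted p under 0.05, and every adjusted p below comes from that fit. A log2 fold change is given with its standard error (SE). "Rose" and "fell" are used only for called genes. In bulk samples fewer cells of a type and less RNA per cell cannot be told apart.

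ATRNL1 stood at 16.9, 13.8 and 15.3 CPM in scramble, 10.2, 9.02 and 8.26 CPM with siRNA-1 and 4.93, 5.41 and 4.61 CPM with siRNA-2. Control lentivirus libraries held 29.2, 27.6 and 27.1 CPM of it and ATRNL1 lentivirus libraries 636, 927 and 727 CPM. The targeted gene was lower in every siRNA-1 and siRNA-2 library than in any scramble library, and higher in every ATRNL1 lentivirus library than in any control library. Total counts ran from 37078568 to 108663135 a library. The 12 cardiomyocyte markers summed to 39810 to 54246 CPM a library. TNNT2 averaged 2999 to 3791 CPM over the groups, while others moved between the delivery methods. From scramble to control lentivirus MYH6 went from 9355 to 4521, NKX2-5 from 136 to 38.9 and TNNI3 from 77.3 to 26.9 CPM. In that comparison 5 of the 12 were called higher, where 30.3% of all genes were, and 5 lower, where 33.2% were. The atrial peptide gene NPPA averaged 41.0 to 99.5 CPM. Of the endothelial genes PECAM1, CDH5 and TEK averaged at most 0.140 CPM in every group and KDR 51.0 to 66.4 CPM, and the 4 pluripotency genes averaged at most 0.319 CPM. The 8 fibroblast markers summed to 161 to 227 CPM in scramble, 217 to 239 CPM with siRNA-1, 209.6 to 222 CPM with siRNA-2, 119 to 124 CPM with the control lentivirus and 130.3 to 164 CPM with the ATRNL1 lentivirus, and their part in the results was not tested.

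The target with the highest mean level per length in every group was CCNG1, which encodes cyclin G1, a partner of protein phosphatase 2A in restraining p53. On the TPM scale, which divides counts by gene length so that genes can be compared, its level was 583 ± 7.13 TPM in scramble (SD, n = 3). CDKN1A, encoding the cyclin-dependent kinase inhibitor p21, came next in scramble at 535 ± 64.9 TPM. The ranges of these genes in scramble were 576 to 591 and 473 to 602 TPM, so their values overlapped. ZMAT3, a zinc finger protein that binds RNA and steers splicing, followed at 150.2 ± 2.78 TPM, BTG2, an antiproliferative factor that promotes mRNA deadenylation, at 149 ± 6.91 TPM and TNFRSF10B, the death receptor DR5, at 143 ± 11.2 TPM. The means of these last 3 lay within the SD of TNFRSF10B, so their order is not resolved. At the other end stood BBC3, which encodes the death activator PUMA, at 5.92 ± 1.24 TPM and PLK3, a stress-responsive polo-like kinase, at 4.80 ± 1.07 TPM. The order changed most between delivery methods. By group mean CDKN1A was the 2nd most abundant member in all 3 siRNA-delivery groups, the 6th with the control lentivirus and the 4th with the ATRNL1 lentivirus, whereas CCNG1 stayed 1st throughout. With siRNA-1 CCNG1 ran from 352 to 426 TPM and CDKN1A from 321 to 426 TPM, which overlap. CDKN1A also overlapped GADD45A with the control lentivirus, and TP53INP1, BTG2, ZMAT3 and GADD45A with the ATRNL1 lentivirus. Its exact rank in these 3 groups is therefore not resolved.

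**Figure D1:**
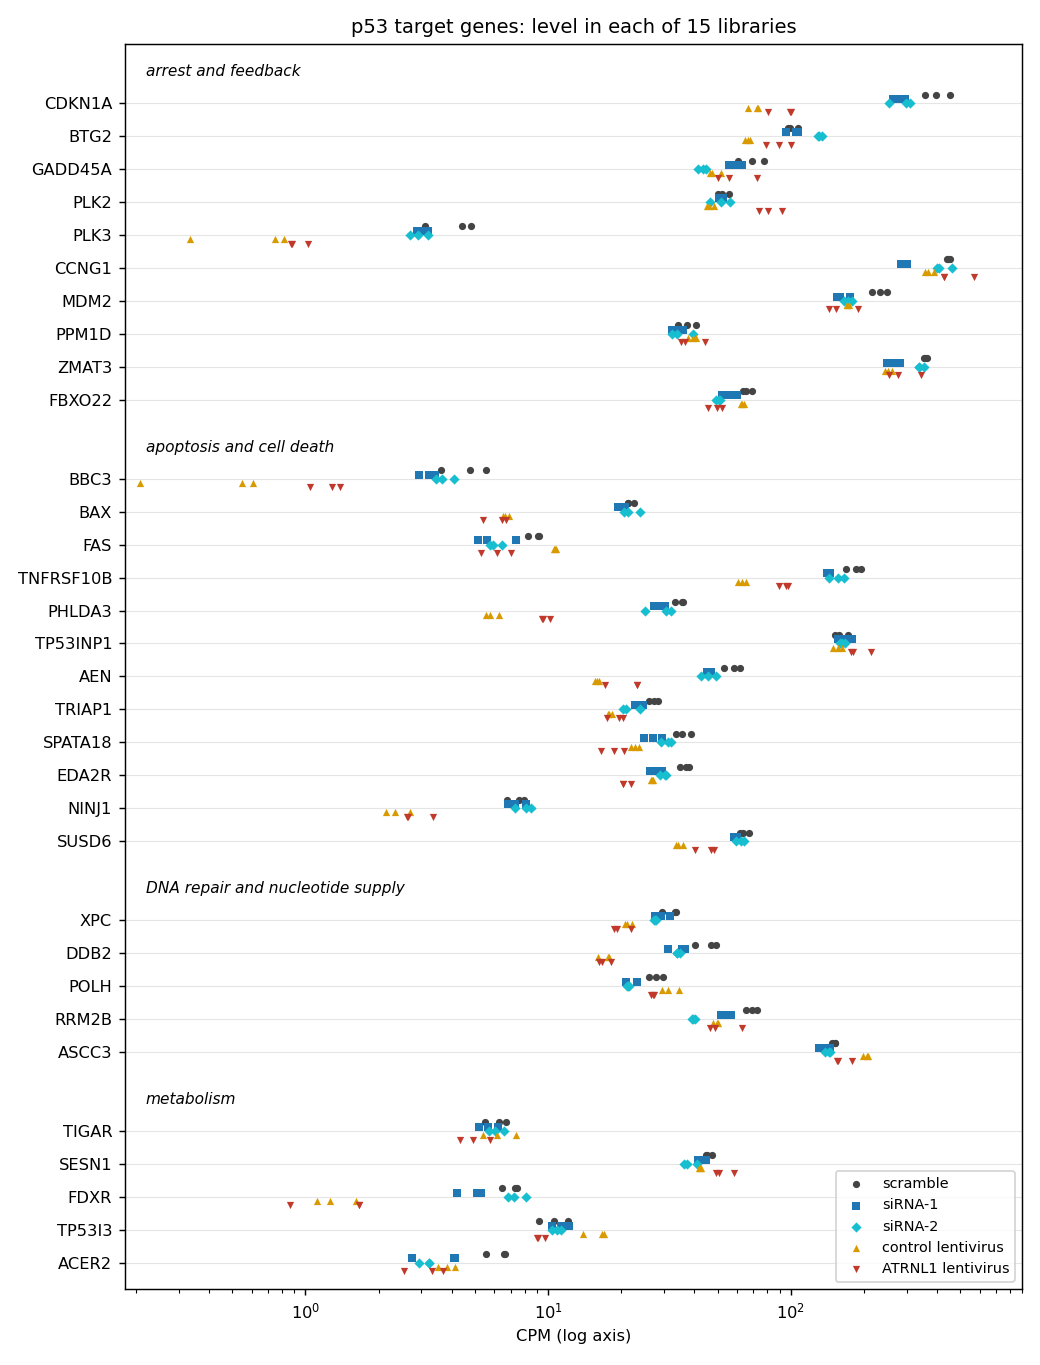
Level of each of the 32 p53 targets in each of the 15 libraries, in CPM on a log axis, with genes in rows by role and 1 point a library. All scramble libraries lie to the right of all siRNA-1 libraries for 21 genes and of all siRNA-2 libraries for 19, beside 14.1% and 18% of all genes. CDKN1A, BBC3, PHLDA3, PLK3 and FDXR lie far to the left in both lentiviral groups.

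Near their start sites, 4 of the members carry a recognisable p53 site in the reference genome, and these sites are shown because they are the DNA that the factor behind the list would read. RefSeq promoter windows of GRCh38.p14, from 250 bases before to 50 after a start, were matched for 25 of the 32 members, with 37 windows in all. They were searched for the p53 half-site consensus, a pattern of 10 bases that is its own reverse complement, so that both strands are covered, and for full sites of 2 half-sites in a row with no spacer, an intact C and G core in each and at most 2 mismatches in all. A half-site without mismatch stood near 6 members, among them PLK2, FDXR and SESN1 with no full site. That is 6 of the 37 member windows, beside 6.63% of all 35116 windows. A full site stood near MDM2, DDB2, AEN and FAS. That is 5 of the 37 member windows, with the same MDM2 site in 2 of them, beside 0.28% of all windows. The stretches below run 5′ to 3′ on the plus strand, which is the strand of all 4 genes, and capitals mark the full site, whose first base is counted from the start of the transcript. DDB2 and FAS also have windows at other starts, which hold no full site and no half-site, and the start given is that of the window with the site.
MDM2, chr12:68808863-68808982, site from -94 of 1 of its starts and -101 of another, 2 mismatches: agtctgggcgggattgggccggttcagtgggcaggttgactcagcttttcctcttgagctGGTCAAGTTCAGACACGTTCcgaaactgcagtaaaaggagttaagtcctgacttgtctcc
DDB2, chr11:47214909-47214988, site from -5 of the start, 1 mismatch: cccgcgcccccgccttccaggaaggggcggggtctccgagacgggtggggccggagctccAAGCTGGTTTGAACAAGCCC
AEN, chr15:88621246-88621339, site from -34 of the start, 2 mismatches: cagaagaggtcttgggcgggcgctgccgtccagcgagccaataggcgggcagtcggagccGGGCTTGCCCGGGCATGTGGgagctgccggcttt
FAS, chr10:88991249-88991368, site from -122 of the start, 2 mismatches: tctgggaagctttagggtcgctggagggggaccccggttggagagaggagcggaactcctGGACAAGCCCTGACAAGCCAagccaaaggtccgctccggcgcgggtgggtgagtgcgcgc
A match of letters is a description and not evidence of binding, and known p53 sites of other members, such as the distal sites of CDKN1A, lie outside these windows. MDM2, DDB2, AEN and FAS all fell with both siRNAs. With the ATRNL1 lentivirus AEN rose, FAS fell, and MDM2 and DDB2 were not called.

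With ATRNL1 lowered, many of the p53 targets fell by a modest amount. Of the 32 members, 16 fell with siRNA-1 and 0 rose, against 3.76% of all 24659 genes called lower and 5.85% called higher. At an unadjusted p under 0.05, 0 members were higher with siRNA-1 by edgeR, and DESeq2 also called 0 higher. With siRNA-2, 17 fell and 1 rose, against 8.48% of all genes called lower and 9.64% called higher. The median log2 fold change of the members was -0.31 with siRNA-1 and -0.25 with siRNA-2, beside -0.01 and 0.00 for all genes tested. In 21 members all 3 siRNA-1 libraries lay below all 3 scramble libraries, as in 14.1% of genes, and in 0 members all 3 lay above, as in 14.7%. In 19 members all 3 siRNA-2 libraries lay below, as in 18% of genes, and in 1 member all 3 lay above, as in 18.7%. Both comparisons share the 3 scramble libraries, so their values stand side by side and are not independent of each other.

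**Figure D2:**
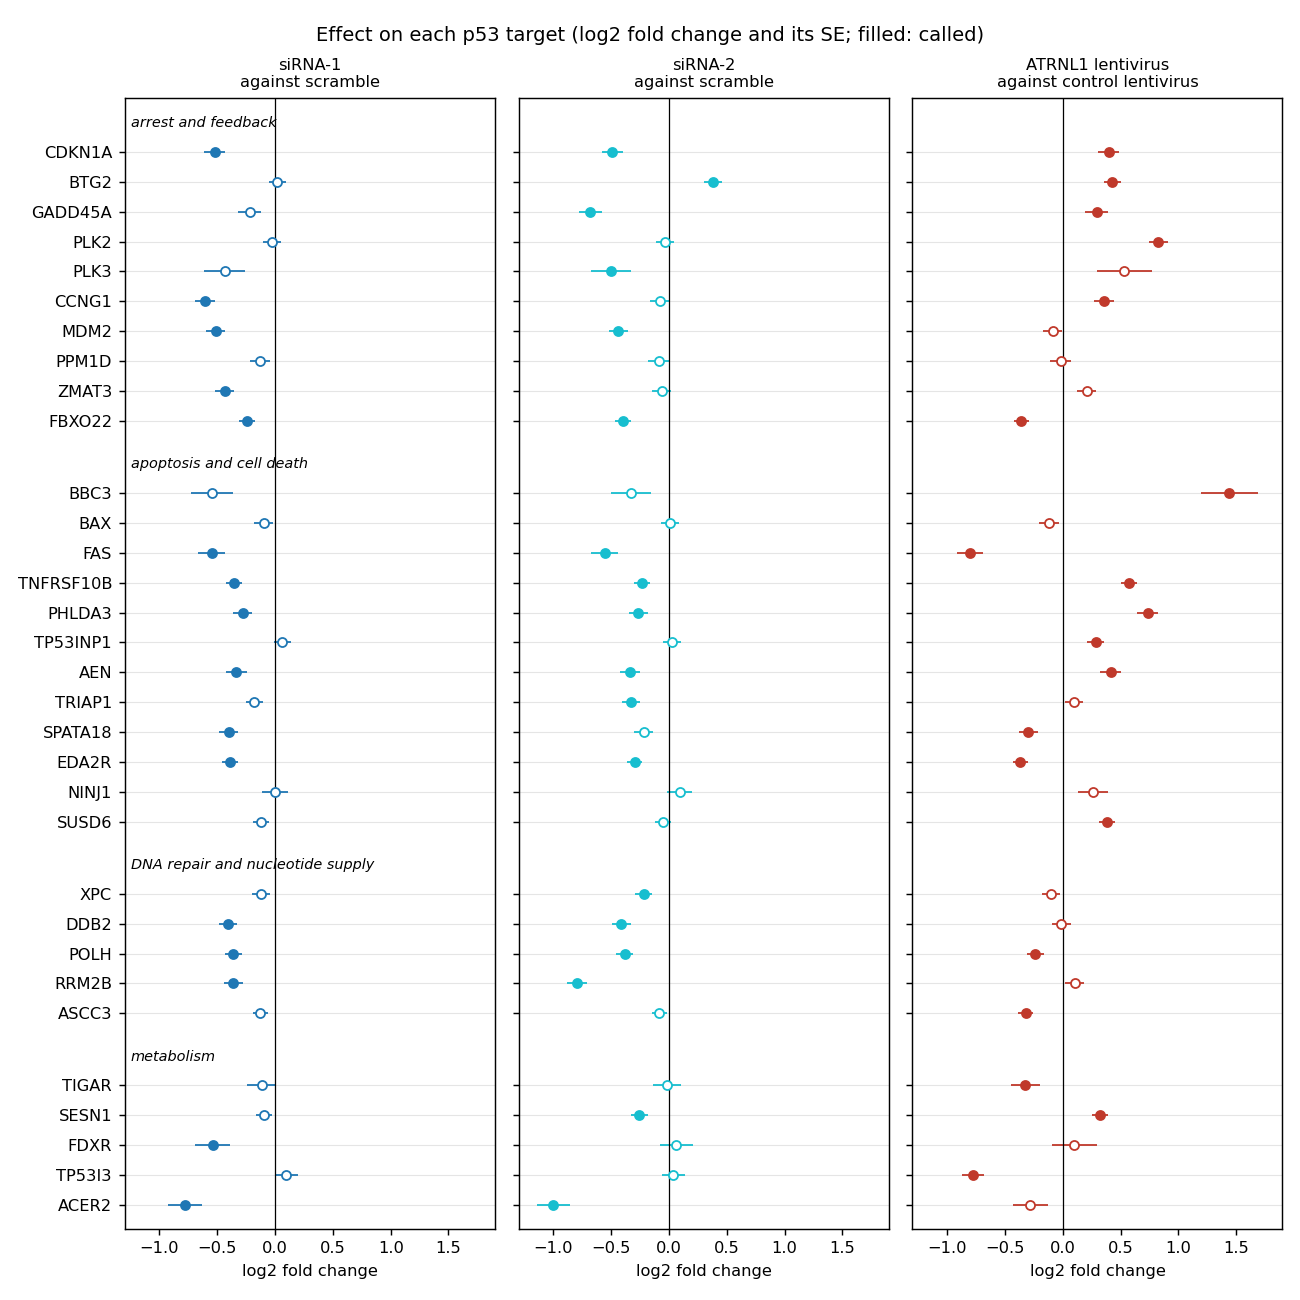
Log2 fold change of each member with its SE (whiskers) for siRNA-1 against scramble, siRNA-2 against scramble and ATRNL1 lentivirus against control lentivirus, with filled points for members called at an adjusted p under 0.05. Points lie mostly left of 0 with either siRNA, down to -1.00 for ACER2, and on both sides of 0 with the lentivirus, from -0.80 for FAS to 1.44 for BBC3.

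Among the 10 genes of arrest and feedback, 5 fell with siRNA-1, where 3.76% of all genes did. With siRNA-2 5 fell and 1 rose, where 8.48% and 9.64% of all genes did. CDKN1A stood at 359, 453 and 397 CPM in scramble, 263, 286 and 295 CPM with siRNA-1 and 255, 297 and 309 CPM with siRNA-2. No siRNA library reached the lowest scramble library. CDKN1A fell with siRNA-1 (log2 fold change -0.52 with SE 0.09, adjusted p = 0.000376) and with siRNA-2 (log2 fold change -0.49 with SE 0.09, adjusted p = 0.000329), which is 30.3% and 28.8% lower. MDM2, the ubiquitin ligase that destroys p53, stood at 216, 250.0 and 232 CPM in scramble, 155, 159 and 175 CPM with siRNA-1 and 171, 166 and 178 CPM with siRNA-2. Every siRNA library lay below every scramble library, the siRNA groups overlapped each other, and MDM2 fell with both siRNAs (log2 fold change -0.51 with SE 0.08, adjusted p = 0.00017 and log2 fold change -0.44 with SE 0.08, adjusted p = 0.000407). FBXO22, the substrate receptor of a ubiquitin ligase that acts on p53 and on histone demethylases, fell with both as well, by 0.24 and 0.40 on the log2 scale. PLK2, a polo-like kinase of the stress response, and PPM1D, the phosphatase that switches the response off, were not called with either siRNA, at -0.03 and -0.13 with siRNA-1 and -0.03 and -0.09 with siRNA-2.

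Of the other arrest and feedback genes CCNG1, ZMAT3, GADD45A and BTG2 differed between the siRNAs in the direct test given further on, and PLK3 did not pass it. CCNG1 stood at 444, 451 and 442 CPM in scramble, 292, 286 and 299.6 CPM with siRNA-1 and 398, 407 and 463 CPM with siRNA-2. The siRNA-1 libraries lay far below both other groups, and the siRNA-2 libraries overlapped scramble. CCNG1 fell with siRNA-1 (log2 fold change -0.61 with SE 0.09, adjusted p = 4.30e-05) and was not called with siRNA-2 (-0.08). ZMAT3 showed the same pair of calls, from 353, 363 and 357 CPM in scramble to 249.9, 262 and 282 CPM with siRNA-1 (log2 fold change -0.43 with SE 0.08, adjusted p = 0.000903) and 338, 337 and 352 CPM with siRNA-2 (-0.06, not called). GADD45A, a stress sensor that binds CDK1 and PCNA, went the other way, at 60.7, 77.6 and 69.1 CPM in scramble, 63.1, 59.5 and 55.4 CPM with siRNA-1 and 41.2, 44.8 and 43.5 CPM with siRNA-2. Only the siRNA-2 libraries lay clear of scramble, and GADD45A fell with siRNA-2 (log2 fold change -0.68 with SE 0.10, adjusted p = 2.03e-05) and was not called with siRNA-1 (-0.22). BTG2 was the 1 member that rose. It stood at 107, 97.1 and 98.9 CPM in scramble, 107, 105 and 95.5 CPM with siRNA-1 and 135, 130.4 and 129.6 CPM with siRNA-2 (log2 fold change 0.38 with SE 0.07, adjusted p = 0.000532). PLK3 rested on fewer counts, 143 to 495 a library in scramble and 171 to 214 with siRNA-2. Its level was 3.11, 4.83 and 4.41 CPM in scramble, 3.11, 2.87 and 3.19 CPM with siRNA-1, where it was not called (-0.44), and 2.91, 2.700 and 3.20 CPM with siRNA-2, where it stood just inside the threshold (log2 fold change -0.50 with SE 0.18, adjusted p = 0.0498).

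Among the 12 genes of apoptosis and cell death, 6 fell with each siRNA and 0 rose with either. The shares over all genes were 3.76% lower and 5.85% higher with siRNA-1, and 8.48% and 9.64% with siRNA-2. FAS, the receptor of the FAS ligand, stood at 8.30, 9.18 and 9.06 CPM in scramble, 5.15, 5.61 and 7.37 CPM with siRNA-1 and 5.90, 5.78 and 6.43 CPM with siRNA-2. All 6 siRNA libraries lay below all scramble libraries (log2 fold change -0.55 with SE 0.12, adjusted p = 0.00258 with siRNA-1 and log2 fold change -0.56 with SE 0.11, adjusted p = 0.0009 with siRNA-2). TNFRSF10B fell by 0.35 and 0.23 with siRNA-1 and siRNA-2, PHLDA3, which blocks the survival kinase AKT, by 0.28 and 0.27, AEN, a nuclease that promotes apoptosis, by 0.33 and 0.34, and EDA2R, a receptor of the tumour necrosis factor family, by 0.39 and 0.30. SPATA18, which acts in the quality control of mitochondria, fell with siRNA-1 (-0.40) and was not called with siRNA-2 (-0.22), and TRIAP1, a small protein that carries lipids in mitochondria and restrains apoptosis, fell with siRNA-2 (-0.33) and was not called with siRNA-1 (-0.18). The direct difference between the siRNAs was not called for either gene. The death genes BAX and BBC3 were not called with either siRNA. BAX, which opens the outer mitochondrial membrane, stood at -0.10 with siRNA-1 and 0.01 with siRNA-2, and BBC3 at -0.54 and -0.33. Nor were TP53INP1, a cofactor of p53 and of autophagy (0.06 and 0.03), NINJ1, which ruptures the plasma membrane in dying cells (0.00 and 0.09), or SUSD6, a membrane protein (-0.12 and -0.05). BBC3 rested on few counts, 167 to 536 a library in scramble and 125 to 189 with siRNA-1. Its siRNA-1 libraries, at 2.93, 3.23 and 3.43 CPM, all lay below scramble, at 3.63, 5.52 and 4.78 CPM. With siRNA-2 it stood at 3.44, 4.09 and 3.65 CPM, which overlap scramble.

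All 5 members of DNA repair and nucleotide supply had a negative log2 fold change with both siRNAs. Of all 24659 genes, 12583 had one with siRNA-1 and 12237 with siRNA-2. Of the 5 members 3 fell with siRNA-1, where 3.76% of all genes did, and 4 with siRNA-2, where 8.48% did. RRM2B, the p53-induced subunit of ribonucleotide reductase that supplies nucleotides in resting cells, stood at 65.3, 72.4 and 69.0 CPM in scramble, 52.5, 51.6 and 56.9 CPM with siRNA-1 and 39.6, 39.2 and 40.4 CPM with siRNA-2. The 3 groups did not overlap, and the fall was larger with siRNA-2 (log2 fold change -0.80 with SE 0.08, adjusted p = 1.88e-07) than with siRNA-1 (log2 fold change -0.36 with SE 0.08, adjusted p = 0.00545). DDB2, which recognises ultraviolet damage, fell by 0.41 and 0.41, and POLH, the polymerase that copies past such damage, by 0.36 and 0.38. XPC, the damage sensor of nucleotide excision repair, fell with siRNA-2 (-0.22) and was at -0.12 with siRNA-1. ASCC3, a helicase of alkylation repair and of ribosome rescue, was not called (-0.13 and -0.08).

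Of the 5 metabolic members, 2 fell with each siRNA, where 3.76% of all genes fell with siRNA-1 and 8.48% with siRNA-2. ACER2, a Golgi ceramidase, had the largest fold change of the 32 with either siRNA. It stood at 5.56, 6.55 and 6.61 CPM in scramble, 2.74, 4.08 and 4.14 CPM with siRNA-1 (log2 fold change -0.78 with SE 0.15, adjusted p = 0.000722) and 3.23, 3.23 and 2.92 CPM with siRNA-2 (log2 fold change -1.00 with SE 0.14, adjusted p = 1.51e-05). Every siRNA library lay below every scramble library. FDXR, the reductase that passes electrons to mitochondrial cytochromes P450 and iron-sulphur cluster assembly, stood at 6.43, 7.44 and 7.28 CPM in scramble, 4.23, 5.09 and 5.28 CPM with siRNA-1 (log2 fold change -0.54 with SE 0.15, adjusted p = 0.023) and 6.84, 8.11 and 7.23 CPM with siRNA-2 (0.06, not called). SESN1, a sestrin that restrains the growth kinase complex mTOR, fell with siRNA-2 (-0.26) and was at -0.10 with siRNA-1. TIGAR, which slows glycolysis, and TP53I3, a quinone oxidoreductase, were not called with either siRNA, at -0.11 and 0.09 with siRNA-1 and -0.02 and 0.04 with siRNA-2.

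The 3 scramble libraries were ordered in the same way across most members, and many of the siRNA calls were lost with fewer scramble libraries. Scramble library 1 was the lowest of the 3 in 26 members, against 39.9% of all genes tested, and library 2 the highest in 25, against 38.4%. The mean log2 CPM over the 32 members was 5.25, 5.41 and 5.35 in scramble libraries 1 to 3, from 5.01 to 5.12 with siRNA-1 and from 5.05 to 5.14 with siRNA-2, so every siRNA library lay below every scramble library. The unfolded protein response list (22 genes) followed the same order much more widely, with means of 6.38, 7.40 and 6.99 in scramble, and so did the integrated stress response list (27 genes), with 4.63, 5.31 and 5.04. The 27 cell cycle genes had the opposite order, with 4.42, 3.82 and 4.17. Of the unfolded protein response genes 21 of 22 fell with siRNA-1 and 19 with siRNA-2 (median -0.91 with each), and 0 rose with either. Of the integrated stress response genes 12 and 21 of 27 fell, and 1 and 2 rose. Of the 27 cell cycle genes 7 and 6 rose, and 0 and 1 fell. Over all genes 3.76% fell and 5.85% rose with siRNA-1, and 8.48% and 9.64% with siRNA-2. The part of these programmes in the fall of the p53 targets was not tested. With scramble library 1 as the sole control, an arm of 1 sample that is assumed to vary like the other groups, 1 member fell with siRNA-1 (CCNG1), where 0.89% of genes were called lower, and 4 with siRNA-2 (ACER2, FBXO22, GADD45A and RRM2B), where 3.62% were. 0 members were called higher with either siRNA, where 1.23% and 3.13% of genes were. The median of the members was then -0.18 and -0.13. The other scramble libraries were not run as sole control, so fewer controls and a different control cannot be told apart in these lost calls. CDKN1A stood at -0.35 with siRNA-1 and -0.33 with siRNA-2, and MDM2 at -0.41 and -0.34, none of them called with 1 control library. Against that lowest library alone, all 3 siRNA-1 libraries were still lower in 23 members, as in 30.9% of genes, and higher in 2, as in 31.5%. All 3 siRNA-2 libraries were lower in 21, as in 34.2%, and higher in 4, as in 35.5%.

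**Figure D3:**
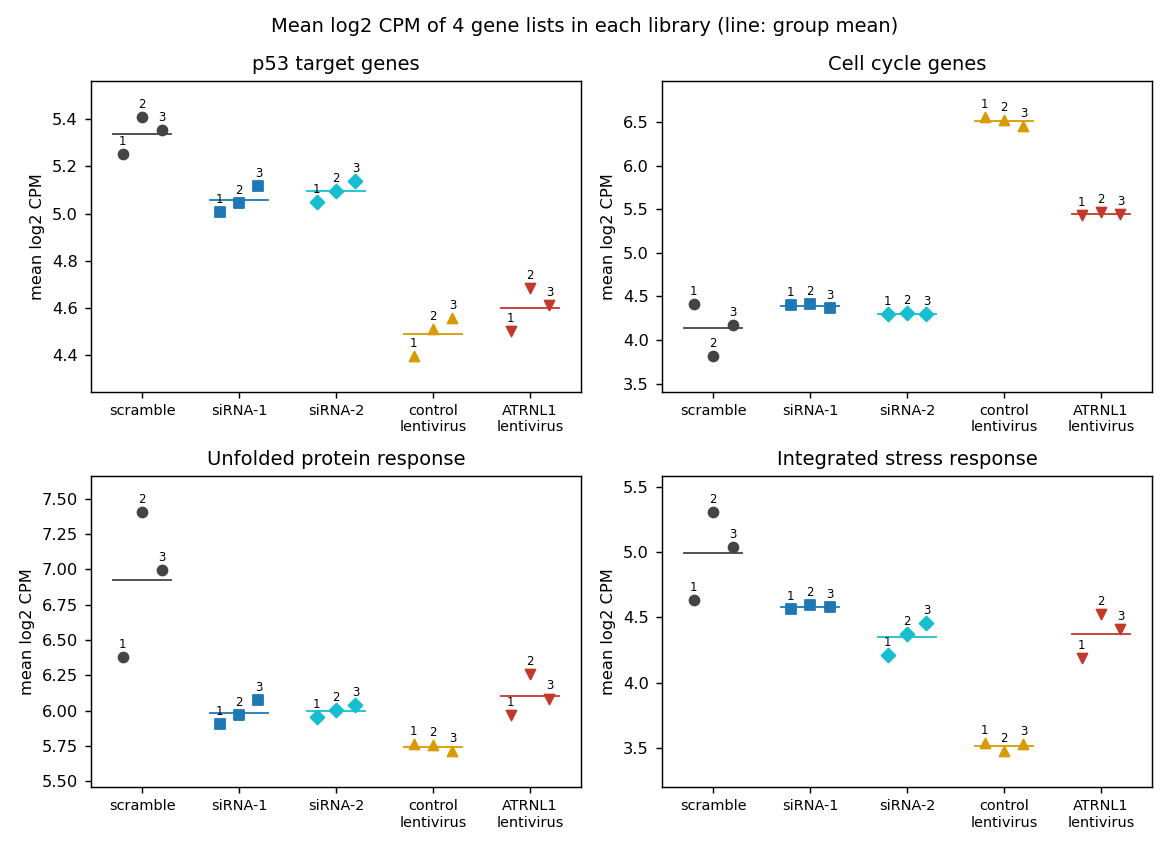
Mean log2 CPM of 4 gene lists (the 32 p53 targets, 27 cell cycle genes, 22 unfolded protein response genes and 27 integrated stress response genes) in each library, with the library number above each point and the group mean as a line. Scramble library 1 is the lowest and library 2 the highest of the scramble libraries in the p53 and both stress panels, and the order is reversed in the cell cycle panel.

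Weaker siRNA calls were also lost when 1 library was left out, where fewer libraries and the library left out cannot be told apart. Without scramble library 2, without scramble library 3, without siRNA-1 library 1 or without siRNA-1 library 2, FBXO22, PHLDA3, AEN and FDXR were no longer called lower with siRNA-1, and without siRNA-1 library 3 PHLDA3 was not. Without siRNA-2 library 1, PLK3, TNFRSF10B, PHLDA3, AEN, XPC and SESN1 lost their siRNA-2 call, leaving 11 of 17. PLK3 and XPC also lost it without siRNA-2 library 2, siRNA-2 library 3, scramble library 2 or scramble library 3, TNFRSF10B without any of these except siRNA-2 library 3, SESN1 without siRNA-2 library 2 or scramble library 2, and PHLDA3 without scramble library 2 or scramble library 3. With 2 libraries a group, leaving out the one between the others, 2 members fell with siRNA-1 (ACER2 and CCNG1, where 0.543% of genes were called lower and 1.22% higher) and 6 with siRNA-2 (ACER2, CDKN1A, FBXO22, GADD45A, POLH and RRM2B, where 2.23% were lower and 3.41% higher), and 0 rose with either. CDKN1A then stood at -0.54 with siRNA-1 and -0.53 with siRNA-2, close to its values with 3 libraries.

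Tested directly against each other, the siRNAs differed in 6 members. The scramble libraries enter this comparison only through the shared estimate of spread. CCNG1, ZMAT3, FDXR and BTG2 were lower with siRNA-1 than with siRNA-2, where 4.53% of all genes were, by 0.53 (adjusted p = 0.000178), 0.37 (0.0038), 0.60 (0.0104) and 0.36 (0.0019) on the log2 scale. GADD45A and RRM2B were higher with siRNA-1, where 5.6% of genes were, by 0.46 (adjusted p = 0.00337) and 0.43 (0.00104). The median over the 32 members was -0.02, beside -0.01 for all genes. The level of ATRNL1 also differed between the siRNAs, by 0.87, with less of it left after siRNA-2. Of the 6 members, GADD45A and RRM2B were lower after siRNA-2, and CCNG1, ZMAT3, FDXR and BTG2 after siRNA-1. The part of the ATRNL1 level in these differences was not tested. For CDKN1A the difference between the siRNAs was -0.03 with SE 0.09, and for MDM2 -0.07 with SE 0.08. With 2 libraries a group CCNG1 alone of the 6 was still called, where 0.787% of genes were lower and 1.09% higher, and without siRNA-1 library 1 or without siRNA-2 library 2 FDXR was not.

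**Figure D4:**
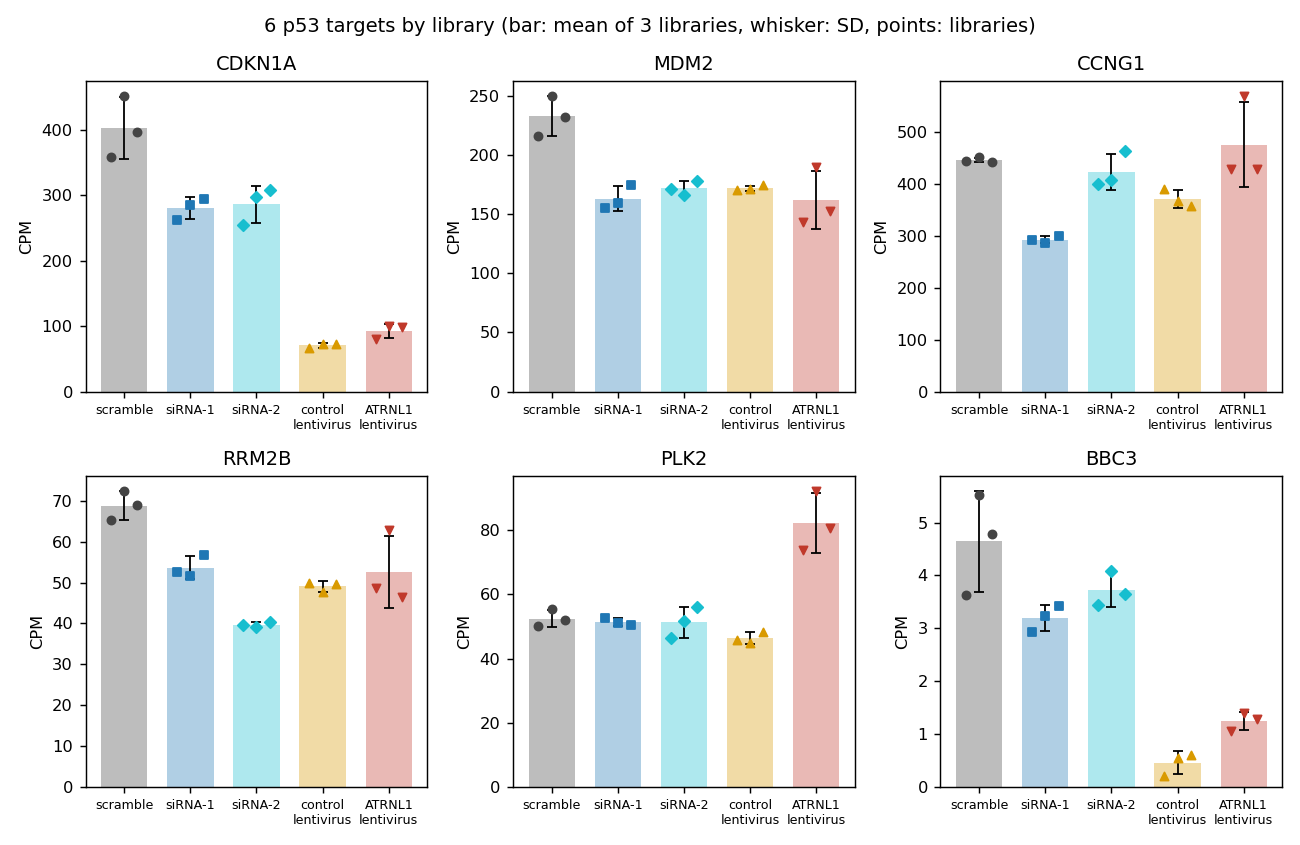
CPM of CDKN1A, MDM2, CCNG1, RRM2B, PLK2 and BBC3 in the 5 groups, with bars for the mean of 3 libraries, whiskers for the SD and points for libraries, on axes that start at 0. CCNG1 is lowest in siRNA-1, RRM2B is lowest in siRNA-2, PLK2 is high in the ATRNL1 lentivirus group alone, and CDKN1A and BBC3 are low in both lentiviral groups.

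With ATRNL1 raised by lentivirus, the p53 targets did not move together. Against the control lentivirus 12 members rose, where 19.1% of all genes did, and 8 fell, where 18% did. The median over the members was 0.10, beside 0.00 for all genes. In 12 members all 3 ATRNL1 libraries lay above all control libraries, as in 21.4% of genes, and in 7 all lay below, as in 21.5%. The share of members that rose was 5 of 10 in arrest and feedback, 6 of 12 in apoptosis and cell death, 0 of 5 in DNA repair and nucleotide supply and 1 of 5 in metabolism. Of the 8 that fell, 1 is a gene of arrest and feedback, 3 of apoptosis and cell death, 2 of DNA repair and 2 of metabolism.

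BBC3, the PUMA gene, rose the most. It stood at 0.207, 0.547 and 0.607 CPM under the control virus (13 to 54 counts a library) and 1.05, 1.39 and 1.29 CPM with the ATRNL1 lentivirus (67 to 99 counts), with no overlap (log2 fold change 1.44 with SE 0.25, adjusted p = 4.25e-05). These levels were all below the 3.63, 5.52 and 4.78 CPM of scramble. PLK2 stood at 45.9, 44.9 and 48.3 CPM under the control virus and 73.8, 92.3 and 80.7 CPM under the ATRNL1 virus (log2 fold change 0.83 with SE 0.08, adjusted p = 5.07e-09). All 3 values lay above its level in every siRNA-delivery library, where it ran from 46.4 to 56.0 CPM. PHLDA3 rose from 5.77, 5.57 and 6.25 to 9.42, 9.54 and 10.2 CPM (log2 fold change 0.73 with SE 0.09, adjusted p = 4.28e-07), and TNFRSF10B from 60.8, 62.9 and 65.2 to 89.3, 97.0 and 95.1 CPM (log2 fold change 0.58 with SE 0.07, adjusted p = 2.58e-07). The groups did not overlap for either gene. CDKN1A rose from 66.4, 72.7 and 73.0 to 80.4, 99.7 and 98.9 CPM (log2 fold change 0.40 with SE 0.09, adjusted p = 0.00131). CCNG1 rose from 390.0, 367 and 356 to 428, 569 and 428 CPM (log2 fold change 0.36 with SE 0.09, adjusted p = 0.0021), with library 2 of the ATRNL1 group well above the other 2. The remaining risers were BTG2 at 0.43, AEN at 0.41, SUSD6 at 0.38, SESN1 at 0.32, GADD45A at 0.29 and TP53INP1 at 0.28. Library 2 of the ATRNL1 group was the highest of its 3 in 21 of the 32 members, against 42.6% of all genes.

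FAS and TP53I3 fell the most. FAS fell from 10.52, 10.7 and 10.8 to 5.31, 7.02 and 6.14 CPM (log2 fold change -0.80 with SE 0.11, adjusted p = 3.00e-06). TP53I3 fell from 13.9, 16.6 and 17.0 to 9.06, 8.98 and 9.68 CPM (log2 fold change -0.78 with SE 0.10, adjusted p = 4.82e-07). Neither overlapped its control. FAS shares 8.93% of its exon bases with ACTA2, the gene of smooth muscle actin, and as no source names the strand used in counting, reads from the shared bases cannot be told apart. ACTA2 was not called with the ATRNL1 lentivirus (-0.44, adjusted p = 0.064). Its libraries there, at 224, 234 and 237 CPM, all lay below the controls, at 333, 315 and 294 CPM. With siRNA-1, where FAS fell, ACTA2 was at 0.58. It held 184, 161 and 123 CPM there against 148, 56.3 and 109 CPM in scramble, which overlap. The part of ACTA2 reads in the FAS values was not tested. EDA2R fell by 0.37, FBXO22 by 0.36, ASCC3 by 0.32, TIGAR by 0.32, SPATA18 by 0.30 and POLH by 0.24. TIGAR shares 45.6% of exon bases with other annotated genes, XPC 30.4%, PHLDA3 19.1% and FBXO22 16.2%. MDM2 was not called. Its level was 170.3, 171 and 174 CPM under the control virus and 143, 189.6 and 153 CPM under the ATRNL1 virus, which overlap (log2 fold change -0.09 with SE 0.08, adjusted p = 0.452). Not called either were DDB2 (-0.01), RRM2B (0.10), BAX (-0.12), PPM1D (-0.02), ZMAT3 (0.21), PLK3 (0.53), TRIAP1 (0.10), NINJ1 (0.26), XPC (-0.10), FDXR (0.10) and ACER2 (-0.28).

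Other programmes moved in the same libraries. With the ATRNL1 lentivirus all 27 cell cycle genes fell, with a median of -1.03, from a summed 4584 to 4911 CPM in the control libraries to 2329 to 2552 CPM. Of the integrated stress response genes 21 of 27 rose and 1 fell (median 0.71), led by NUPR1 at 3.13 and STC2 at 2.46, and of the unfolded protein response genes 11 of 22 rose and 0 fell (median 0.40), led by HERPUD1 at 1.54 and HSPA5 at 0.76. Over all genes 19.1% rose and 18% fell. BBC3, TNFRSF10B and GADD45A are also known targets of stress factors other than p53, and the part of the stress programmes in these changes was not tested. TIGAR was not called with all libraries by DESeq2, by edgeR with DESeq2's size factors or in a fit of the 2 lentiviral groups alone. It was also lost without control lentivirus library 2, control lentivirus library 3, ATRNL1 lentivirus library 1 or ATRNL1 lentivirus library 3, and the call of GADD45A without control lentivirus library 2, control lentivirus library 3 or ATRNL1 lentivirus library 2. POLH was lost without control lentivirus library 2 and SPATA18 without ATRNL1 lentivirus library 1. With 2 libraries a group 8 members rose and 4 fell, where 11.4% and 9.72% of genes did.

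The siRNA and lentiviral comparisons share no libraries, so members can be sorted by both calls. Of the 16 that fell with siRNA-1, 5 rose with the ATRNL1 lentivirus (CDKN1A, CCNG1, TNFRSF10B, PHLDA3 and AEN), 5 fell (FBXO22, FAS, SPATA18, EDA2R and POLH) and 6 were not called. Of the 17 that fell with siRNA-2, 6 rose (CDKN1A, GADD45A, TNFRSF10B, PHLDA3, AEN and SESN1), 4 fell (FBXO22, FAS, EDA2R and POLH) and 7 were not called. Over all genes tested 19.1% rose and 18% fell with the ATRNL1 lentivirus. The shares among all genes that fell with an siRNA were not counted. The members that fell with an siRNA held both genes that rose and genes that fell with the lentivirus.

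The difference of the effects was tested directly as the overexpression effect minus the mean effect of both siRNAs. It was positive and called in 17 members, where 16.5% of all genes were, and negative and called in 1, where 15.5% were. The median was 0.37, beside 0.01 for all genes. BBC3 had the largest difference (log2 fold change 1.88 with SE 0.29, adjusted p = 1.39e-05). PHLDA3 followed (log2 fold change 1.01 with SE 0.11, adjusted p = 1.58e-07), then PLK3 (log2 fold change 1.00 with SE 0.28, adjusted p = 0.0075). For CDKN1A the difference was 0.90 (SE 0.12, adjusted p = 1.95e-06), for TNFRSF10B 0.87, for PLK2 0.86 and for CCNG1 0.70. The differences of RRM2B (0.68), DDB2 (0.40), MDM2 (0.39), ACER2 (0.61), PLK3, ZMAT3 (0.45) and TRIAP1 (0.35) were called although the lentiviral effect alone was not. These values draw on the scramble libraries. The 1 negative value was that of TP53I3 (log2 fold change -0.84 with SE 0.13, adjusted p = 1.34e-05). FAS (-0.25), EDA2R (-0.02) and FBXO22 (-0.04), which fell in both experiments, were not called. With the control group cut to scramble library 1, 12 of the 17 positive calls held, where 10.1% of genes were positive and 8.2% negative, and those of PLK3, MDM2, TRIAP1, DDB2 and ACER2 did not. With 2 libraries a group 11 held, where 8.52% and 8.02% were. Without ATRNL1 lentivirus library 3 the call of ACER2 was lost.

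Larger differences lay between the control cells of the 2 delivery methods, reaching -3.36 on the log2 scale. With the control lentivirus 22 members were lower than with the scramble siRNA, where 33.2% of all genes were, and 4 were higher, where 30.3% were. The median over the members was -0.55, beside -0.06 for all genes. In 24 members all 3 control lentivirus libraries lay below all scramble libraries, as in 35.6% of genes, and in 3 all lay above, as in 32.9%. Virus, puromycin selection, culture and any batch cannot be told apart in this comparison. The 4 smooth muscle and pericyte markers summed to 249.98 to 312 CPM in scramble and 578 to 599.9 CPM with the control lentivirus, with 3 called higher and 1 lower, led by RGS5 from a mean of 97.9 to 349 CPM, and their part in the result was not tested.

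**Figure D5:**
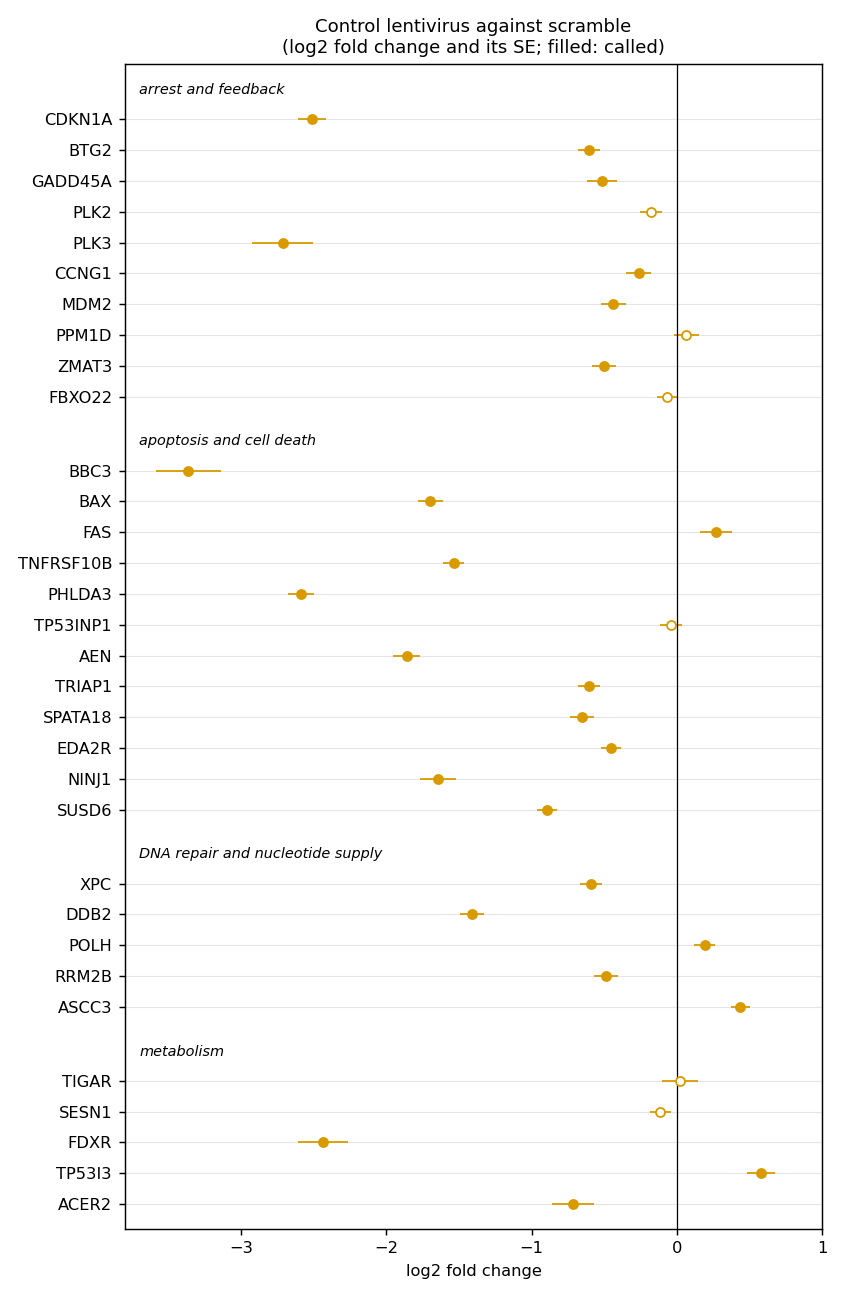
Log2 fold change of each member with its SE between the control lentivirus and scramble groups, with filled points for called members. Values reach -3.36 for BBC3, and 10 of the 12 genes of apoptosis and cell death lie on the lower side and are called, beside 33.2% of all genes.

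Of the genes of apoptosis and cell death 10 of 12 were lower, where 33.2% of all genes were, and 1 was higher, where 30.3% were. Their median was -1.22. BBC3, at the levels given above, was the lowest relative to scramble (log2 fold change -3.36 with SE 0.22, adjusted p = 1.04e-12). PHLDA3 stood at 33.4, 35.7 and 36.0 CPM in scramble against 5.77, 5.57 and 6.25 CPM under the control virus (log2 fold change -2.59 with SE 0.09, adjusted p = 7.04e-18). AEN stood at 53.2, 61.8 and 58.1 against 15.6, 16.1 and 15.9 CPM (log2 fold change -1.86 with SE 0.09, adjusted p = 4.80e-15). None of these groups overlapped. BAX was lower as well (-1.70), with 22.5, 21.4 and 21.3 CPM in scramble and 6.65, 6.90 and 6.49 CPM with the control lentivirus, although it was not called in the other comparisons. NINJ1 (-1.65), TNFRSF10B (-1.54), SUSD6 (-0.89), SPATA18 (-0.66), TRIAP1 (-0.61) and EDA2R (-0.45) were lower too. FAS was higher (0.27), as was ACTA2 (1.59), with which it shares exon bases, and TP53INP1 was not called (-0.04).

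In arrest and feedback 7 of 10 were lower, where 33.2% of all genes were. CDKN1A was 82.5% lower, at 66.4, 72.7 and 73.0 CPM against 359, 453 and 397 CPM in scramble (log2 fold change -2.51 with SE 0.10, adjusted p = 3.86e-17). PLK3 stood at 0.335, 0.749 and 0.817 CPM, from 21 to 74 counts a library (log2 fold change -2.71 with SE 0.21, adjusted p = 2.03e-11). BTG2 (-0.60), GADD45A (-0.52), ZMAT3 (-0.50), MDM2 (-0.44) and CCNG1 (-0.26) were lower by less, and PLK2 (-0.18), FBXO22 (-0.07) and PPM1D (0.07) were not called. In DNA repair DDB2 was lower at -1.41, XPC at -0.59 and RRM2B at -0.49, whereas ASCC3 (0.44) and POLH (0.19) were higher. In metabolism FDXR stood at 1.12, 1.27 and 1.61 CPM with the control lentivirus (log2 fold change -2.43 with SE 0.17, adjusted p = 3.23e-12) and ACER2 at -0.71, while TP53I3 was higher (0.58) and SESN1 (-0.11) and TIGAR (0.02) were not called.

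All 27 cell cycle genes were higher with the control lentivirus than with scramble, with a median of 2.58, from a summed 646 to 908 CPM in scramble to 4584 to 4911 CPM. Of 27 integrated stress response genes 22 were lower and 2 higher (median -1.55). Over all genes 33.2% were lower and 30.3% higher. The part of these differences in the level of the p53 targets was not tested. Scaled by library size alone, without TMM, the median of all genes moved from -0.06 to -0.26 and the share of higher calls from 47.7% to 36.6%. The members were then 26 lower and 2 higher, and POLH stood at -0.01. FAS was higher only by a margin, since its call was lost without any 1 of the 6 libraries, and that of POLH was lost without scramble library 1, scramble library 3, control lentivirus library 1 or control lentivirus library 2.

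Genes around the 32 members were counted from further lists. Of 42 further p53 targets 41 were measured, of which 12 fell and 3 rose with siRNA-1 (median -0.14), 8 fell and 4 rose with siRNA-2 (median -0.10), and 18 rose and 8 fell with the ATRNL1 lentivirus (median 0.22). Over all genes 3.76% fell and 5.85% rose with siRNA-1, 8.48% and 9.64% with siRNA-2, and 18% and 19.1% with the ATRNL1 lentivirus. TNFRSF10A, a sister receptor of TNFRSF10B (-0.99), and STEAP3, a metalloreductase of endosomes (-0.95), fell the most with siRNA-1. With siRNA-2 GDF15, a secreted stress cytokine, fell (-0.88) and CMBL, a hydrolase, rose (0.89). GDF15 held 4.31, 5.11 and 4.61 CPM with siRNA-2 against a wide 4.32, 13.3 and 7.97 CPM in scramble, which overlap. TGFA, a ligand of the epidermal growth factor receptor, rose from 1.48, 1.45 and 1.38 to 28.99, 49.4 and 37.6 CPM with the ATRNL1 lentivirus (log2 fold change 4.74 with SE 0.27, adjusted p = 5.67e-13), and the cell cycle repressor E2F7 fell (-1.53). Against scramble, 25 of these targets were lower with the control lentivirus, GDF15 the most (-5.00), and 11 higher, E2F7 the most (3.03), where 33.2% and 30.3% of all genes were. Of 28 regulators of p53 27 were measured, of which 1 fell and 1 rose with siRNA-1 and 2 fell and 1 rose with siRNA-2, shares that are near or below those over all genes. USP28, a deubiquitinase that acts on p53, fell with both (-0.26 and -0.43), and the checkpoint kinase gene CHEK1 rose with both (0.42 and 0.38). USP28 held 256, 194 and 230 CPM in scramble and 197, 192 and 180 CPM with siRNA-1, which overlap (adjusted p = 0.0417). Its siRNA-2 libraries, at 175, 163 and 167 CPM, all lay below scramble. With the ATRNL1 lentivirus 10 regulators rose, where 19.1% of all genes did, and 7 fell, where 18% did, CHEK1 among the latter (-1.28), along with TP73, a transcription factor gene that stood below 1 CPM in every library (-1.45).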

How the data were processed

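Bulk RNA libraries of 5 groups were sequenced. The labels' extract protocol describes ribosomal RNA depletion, whereas their molecule field says polyA RNA. The authors deposited raw counts per gene, and the submitters' processing notes name STAR 2.7.9a, DESeq2 1.30.1 and GRCh 38 without a role for each. The counting program and strand were not stated. Of 59429 rows, 649 without an identifier (0.00157 to 0.00437% of counts) were left out. The 58780 identifiers are those of GENCODE 29. Totals of 37078568 to 108663135 counts a library set the precision, and counting error is small beside the spread between libraries for all but the lowest members. In edgeR 4.0.16 (R 4.3.3) genes were filtered with filterByExpr and scaled with TMM, and quasi-likelihood tests on 5 group means over 15 libraries, with Benjamini-Hochberg adjustment over 24659 genes, gave the calls at an adjusted p under 0.05. The biological coefficient of variation was 8.24%. SE is the log2 fold change over the square root of F. The script was tested on simulated data. Alternatives were DESeq2 1.42.0, its size factors, library size alone, no filter, the groups compared alone, and fewer libraries. Using 2 libraries a group was chosen after seeing the data. CPM rests on TMM-scaled sizes and TPM on the exon length of GENCODE 29. Library values are given for CDKN1A, MDM2 and CCNG1, for the 6 called members with the largest change in a comparison and for members that differ between the siRNAs, and of further lists the 2 called genes that changed most are named. ACTA2 was added after its values were seen. The members and all lists were chosen with earlier results of these data known. 1 further gene of the pathway is not reported here.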

Additional observations from a re-analysis of the deposited data

Results flagged for a closer look

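Results are given here where a test of the difference between 2 effects was called in edgeR (quasi-likelihood test, Benjamini-Hochberg adjusted p). The siRNA-1 effect minus the siRNA-2 effect, on the log2 scale, was -0.36 for BTG2 (adjusted p = 0.0019), 0.46 for GADD45A (0.00337), -0.53 for CCNG1 (0.000178), -0.37 for ZMAT3 (0.0038), 0.43 for RRM2B (0.00104) and -0.60 for FDXR (0.0104). All 3 siRNA-1 libraries lay on 1 side of all 3 siRNA-2 libraries for each of these genes.

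The overexpression effect minus the mean effect of both siRNAs, on the log2 scale, was positive and called for 7 genes of arrest and feedback, at 0.90 for CDKN1A, 0.74 for GADD45A, 0.86 for PLK2, 1.00 for PLK3, 0.70 for CCNG1, 0.39 for MDM2 and 0.45 for ZMAT3. For the genes of apoptosis and cell death it was 1.88 for BBC3, 0.87 for TNFRSF10B, 1.01 for PHLDA3, 0.75 for AEN, 0.35 for TRIAP1 and 0.47 for SUSD6. For the remaining genes it was 0.40 for DDB2, 0.68 for RRM2B, 0.50 for SESN1, 0.61 for ACER2 and -0.84 for TP53I3, the 1 negative value.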

How the results depend on the processing

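No paired analysis was possible because the columns carry no label that ties a library of 1 group to a library of another. With scramble library 1 as the sole control, 568 genes in all were called with siRNA-1 against 2370, with 1 member lower and a member median of -0.18, and 1803 with siRNA-2 against 4470, with 4 members lower, 0 higher and a median of -0.13. The difference of the effects of raising and lowering ATRNL1 was then called in 4886 genes against 7879. With 2 libraries a group, 433 genes were called with siRNA-1 (2 members lower), 1381 with siRNA-2 (6 members lower, 0 higher), 459 between the siRNAs against 2499 (1 member lower, 0 higher), 5164 with the ATRNL1 lentivirus against 9149 (4 members lower) and 4055 for the difference of effects (11 members higher), and 2 members were higher with the control lentivirus than with scramble. Fitted on the groups compared alone, 4914 genes differed between the siRNAs, 4 members of them higher with siRNA-1. Scaled by library size alone, the member median was -0.17 with siRNA-2, -0.10 between the siRNAs and -0.76 between control lentivirus and scramble, where 2 members were higher and POLH turned to -0.01. The difference of effects was then called negative in 2 members. The share of higher calls over all genes became 70.1% against 53.2% with siRNA-2 (1 member higher, 13 lower) and 33.7% against 55.3% between the siRNAs (2 higher, 5 lower). Leaving out 1 library at a time, siRNA-1 called 1421 to 2984 genes, siRNA-2 called 11 to 18 members lower, the siRNAs differed in 1432 to 1700 genes, the difference of effects was negative in 1 to 2 members, and 2 to 3 members were higher with the control lentivirus than with scramble. The cause of these shifts was not tested. DESeq2's Wald test kept 188 of 192 combinations of member and comparison on the same side of the threshold.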
